A study of Mus musculus with 2 samples.

Results

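The cells described are RANKL-high pleiotrophin CAR cells, a group of mesenchymal cells of mouse bone marrow chosen by their own UMI counts (unique molecular identifiers, counted mRNA molecules). CAR cells are CXCL12-abundant reticular cells, and here they were barcodes with at least 10 Cxcl12 UMIs, at least 1 Lepr UMI and fewer than 3 UMIs of the endothelial genes Cdh5 and Kdr together. Members were CAR cells with at least 15 UMIs of Tnfsf11 and Ptn together that also kept within 6 limits, namely fewer than 4 UMIs of Fgf13 and Rspo3, fewer than 5 of Wif1, Alpl and Hs3st5, fewer than 15 of C3 and Saa3, fewer than 3 of Cxcl13, fewer than 3 of Kit and fewer than 5 of Grm7. The rule found 1288 members among 41378 cells kept, of which 1193 came from the adult and 95 from the old library. Each was set against reference cells of the same library, the CAR cells with 0 or 1 UMI of Tnfsf11 and Ptn, of which there were 3007 adult and 8240 old cells. Tnfsf11, Ptn and the other 14 genes of the rule differ by construction, so their values are given as a description only and they were left out of every count of genes.

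CAR cells surround marrow sinusoids and hold blood stem cells and B-cell progenitors through CXCL12 and stem cell factor. RANKL, the product of Tnfsf11, binds RANK on osteoclast precursors and drives them to become bone-resorbing osteoclasts, osteoprotegerin (Tnfrsf11b) is its soluble decoy, and vitamin D and parathyroid hormone are classical inducers of Tnfsf11 in stromal cells. Pleiotrophin (Ptn) is a heparin-binding growth factor that signals through syndecans and the phosphatase Ptprz1 and has been tied to the maintenance of blood stem cells in the marrow.

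Both libraries were made from the marrow of long bones of wild-type C57BL6 mice, 1 library from adult and 1 from old animals, with no treatment named. Haematopoietic cells had been depleted by magnetic separation and DAPI staining had been used to gate live cells in the sort. The labels give age as a word, and the number of mice, their sex and any pooling were not stated in the labels. With 1 library per age group, cells are not replicates: no test was run, age and library cannot be told apart, and every 95% interval covers counting error only. The adult library held 208637421 UMIs in 25635 barcodes and the old library 229917243 in 22298. A filter of at least 500 genes and at most 10% mitochondrial UMIs left 22403 and 18975 cells, of which 16097 and 13461 were CAR cells. The libraries shared 152 barcodes, 59 of them among CAR cells and 0 among members.

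Members were deeper than their reference. They had a median of 8377 UMIs per cell in the adult library against 5418 in the reference cells, and 9749 against 7160 in the old library. A reference group held to the same 6 limits as the members was shallower still, at 4003 UMIs in 1665 adult cells and 5739 UMIs in 4209 old cells. Values against this second reference are given beside results that it moves. The adult reference also held RNA of bone-forming and cartilage cells. The 10 markers of osteoblasts and osteocytes summed to 20600 CPM there (the genes' UMIs over all UMIs of the group, on the usual counts-per-1000000 scale), 17370 CPM within the limits and 9285 CPM in members, and the 10 chondrocyte markers to 1831, 872 and 132 CPM. In the old library the osteoblast and osteocyte markers summed to 2972 CPM in reference cells and 4379 CPM in members. Ibsp gave most of the sum in members, with 8190 CPM in adult and 3740 CPM in old members. Old members held 490 CPM of Phex, 114 CPM of Col1a1 and 5.34 CPM of Bglap. The sum in old members is thus mainly a value of Ibsp and not of the whole list. The part of bone-forming and cartilage cells in the differences below was not tested.

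Members made up 7.41% of adult CAR cells (exact binomial interval 7.01 to 7.83%) and 0.706% of old CAR cells (0.571 to 0.862%). Before the limits were applied, 3221 of 16097 adult CAR cells (20%) and 305 old ones (2.27%) reached 15 UMIs. At the other end, 18.7% of adult and 61.2% of old CAR cells had 0 or 1 UMI of the 2 genes. After each CAR cell was thinned to 4000 UMIs, members were 2.19% of the 13870 adult CAR cells (1.95 to 2.45%) deep enough and 0.0832% of the 12023 old ones (0.0399 to 0.153%). The limits left 37.0% of the adult and 31.1% of the old cells at 15 or more UMIs. A cell can break several limits. Fgf13 and Rspo3 were over their limit in 1893 of the 3221 adult and 109 of the 305 old cells. Among old cells C3 and Saa3 were over theirs in 86, Grm7 in 61 and Cxcl13 in 57, against 11, 51 and 19 of the adult cells.

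**Figure D1:**
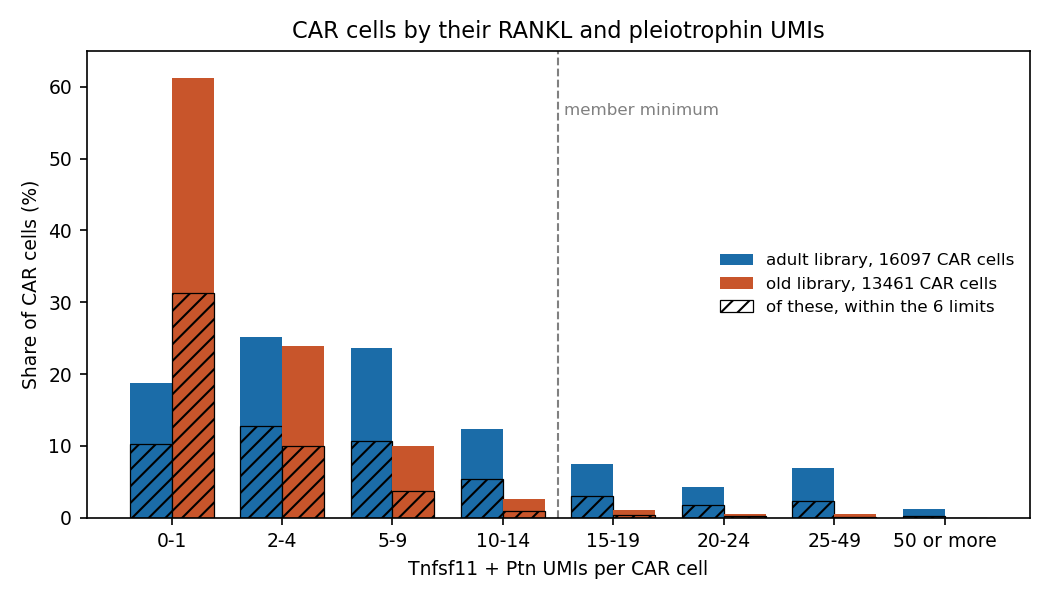
Share of CAR cells (y axis, percent) by the sum of Tnfsf11 and Ptn UMIs in the cell (x axis), for the adult (blue) and old (orange) library, with the hatched part showing cells within the 6 limits; the dashed line marks the member minimum. Adult CAR cells spread over all bins, whereas 61.2% of old CAR cells lay in the first bin and 2.27% lay to the right of the line.

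RANKL carried most of the gate. Tnfsf11 (ENSMUSG00000022015) gave 73.0% of the 2 genes' UMIs in adult members and 74.4% in old members. Its median was 16 UMIs per member in both libraries, with a range of 0 to 110 in the adult and 0 to 49 in the old. Ptn (ENSMUSG00000029838) had a median of 5 UMIs in adult and 2 in old members, and 210 adult and 34 old members had none. Tnfsf11 alone reached 15 UMIs in 703 of 1193 adult and 58 of 95 old members, and Ptn alone in 145 and 13. Pleiotrophin in the name therefore describes the sum and not every member.

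Summed over members, Tnfsf11 stood at 2016 CPM (Poisson interval 1989 to 2043) in the adult and 1333 CPM (1266 to 1402) in the old library, and Ptn at 746 and 460 CPM. Reference cells held 54.8 and 26.1 CPM of Tnfsf11, the adult level being below the 89.6 CPM of the megakaryocyte gate named next. Megakaryocytes (at least 10 UMIs of Pf4 and Ppbp, fewer than 10 of Cxcl12) should lack it and gave a guide to free RNA: 15.2% of 481 adult cells at a median of 1660 UMIs and 2.12% of 378 old cells at 1844 UMIs had a Tnfsf11 UMI, against 99.2% and 96.8% of members. Adult cells of this gate held up to 29 UMIs of Tnfsf11 and Ptn together, and 1.66% of them reached 15. The adult gate level may thus be more than free RNA. Whether the 2 genes go together was read in CAR cells within the limits, binned by Tnfsf11 alone. Adult cells with 0 Tnfsf11 UMIs held 327 CPM of Ptn, those with 10 to 14 held 444 CPM and those with 15 or more held 404 CPM. Old cells went from 74.3 CPM to 120 and 127 CPM in the same bins. Adult CAR cells with no RANKL UMI thus still held Ptn.

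The bases before the start of the 2 gate genes, of 2 of the given markers and of 2 genes described below are shown because these genes were high in the same adult cells. Each run holds the 250 bases before the RefSeq start (build GRCm38.p6), read 5′ to 3′ on the gene's strand, and capitals mark TGACG, part of the cAMP response element, and TATAA, the TATA box, on either strand; TTATAA holds overlapping matches of both strands and counts as 1 place. The positions are chr14:78308044-78308293 (minus strand) for Tnfsf11, chr6:36810180-36810429 (minus) for Ptn, chr1:78816661-78816910 (plus) for Kcne4, chr9:98033168-98033417 (minus) for Clstn2, chr15:101266596-101266845 (plus) for Nr4a1 and chr1:144004150-144004399 (minus) for Rgs2.
Tnfsf11: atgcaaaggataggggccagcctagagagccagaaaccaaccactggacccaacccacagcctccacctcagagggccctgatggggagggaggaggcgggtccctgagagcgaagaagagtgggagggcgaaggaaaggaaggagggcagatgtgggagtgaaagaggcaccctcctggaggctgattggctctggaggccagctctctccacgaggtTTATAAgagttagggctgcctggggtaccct
Ptn: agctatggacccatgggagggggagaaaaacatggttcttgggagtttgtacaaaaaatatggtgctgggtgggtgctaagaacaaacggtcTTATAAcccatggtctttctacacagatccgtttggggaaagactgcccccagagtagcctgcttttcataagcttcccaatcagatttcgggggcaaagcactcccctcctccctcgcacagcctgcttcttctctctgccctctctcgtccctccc
Kcne4: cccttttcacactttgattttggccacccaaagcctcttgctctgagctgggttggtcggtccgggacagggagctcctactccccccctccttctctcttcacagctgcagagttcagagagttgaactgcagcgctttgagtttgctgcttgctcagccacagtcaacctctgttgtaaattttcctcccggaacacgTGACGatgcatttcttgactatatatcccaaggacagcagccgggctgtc
Clstn2: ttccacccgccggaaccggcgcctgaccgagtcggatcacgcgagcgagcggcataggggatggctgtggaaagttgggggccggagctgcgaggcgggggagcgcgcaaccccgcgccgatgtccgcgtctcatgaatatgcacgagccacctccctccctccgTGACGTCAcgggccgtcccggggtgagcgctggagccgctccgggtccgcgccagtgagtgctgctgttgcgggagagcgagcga
Nr4a1: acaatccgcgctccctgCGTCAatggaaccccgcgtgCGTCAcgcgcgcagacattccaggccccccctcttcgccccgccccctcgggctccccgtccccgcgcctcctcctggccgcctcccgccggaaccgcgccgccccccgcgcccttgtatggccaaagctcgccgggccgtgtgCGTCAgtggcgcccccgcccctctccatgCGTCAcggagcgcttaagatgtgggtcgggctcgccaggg
Rgs2: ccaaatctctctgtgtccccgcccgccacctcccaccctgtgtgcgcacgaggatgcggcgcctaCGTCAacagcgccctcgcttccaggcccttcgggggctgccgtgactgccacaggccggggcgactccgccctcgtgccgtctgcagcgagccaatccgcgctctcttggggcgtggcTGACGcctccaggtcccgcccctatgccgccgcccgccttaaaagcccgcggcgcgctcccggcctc

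Tnfsf11 and Ptn each held TATAA at 1 place and TGACG at 0 places. TGACG lay at 1 place in Kcne4, 4 in Nr4a1, 2 in Rgs2 and 1 in Clstn2, where it is part of the full palindrome TGACGTCA. Over 32851 RefSeq promoters of the same 250 bases, 17.8% held TGACG, 1.55% TGACGTCA and 22.8% TATAA on either strand. The NR4A element AAAGGTCA, in 1.34% of promoters, was in none of the 6. The genes shown and the 4 motifs were chosen after values and sequences had been seen, and a match is a description of letters, not of binding.

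Of the 3 markers given with the group that the rule did not use, all 3 lay above both references in adult members, and 1 did so beyond counting error in old members. Kcne4 (ENSMUSG00000047330), a regulatory subunit of voltage-gated potassium channels, was at 351 CPM (340 to 363) in adult members, 91.9 CPM in reference cells and 159 CPM in those within the limits. Old members held 60.6 CPM (47.0 to 76.8) against 46.1 and 53.6 CPM. The adult levels lay 3.82-fold apart, or 2.21-fold within the limits, and the old levels 1.31-fold and 1.13-fold.

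Clstn2 (ENSMUSG00000032452), which encodes calsyntenin-2, a cadherin-type adhesion protein, was at 93.4 CPM in adult members (87.7 to 99.5) against 22.3 and 37.9 CPM. In the old library it was near its detection limit, with 6 UMIs in all 95 members (5.34 CPM, 1.96 to 11.6) and 4.02 CPM in reference cells. Adamts1 (ENSMUSG00000022893), a secreted protease that cleaves proteoglycans such as versican, was higher in members of both libraries. It stood at 885 CPM against 357 CPM in the adult reference and at 421 CPM (384 to 461) against 215 CPM in the old, folds of 2.48 and 1.96, and within the limits the adult fold was 1.66. Tnfsf11 and Ptn are high in members by the rule and lend the label no support of their own. So in the old library Adamts1 was the only given marker to set members apart beyond counting error, at under 2-fold. Of 10 CAR markers 9 passed 50 CPM in members of both libraries, but Cxcl12 and Lepr are genes of the gate and give most of the list's UMIs, so their sum says little. Among markers that the gate did not use, Kitl stood at 3831 and 3626 CPM in adult and old members, Adipoq at 1804 and 981 CPM and the transcription factor Foxc1 at 436 and 570 CPM. Hpx was the 1 marker near 0, with 8 UMIs in adult and 2 in old members.

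**Figure D2:**
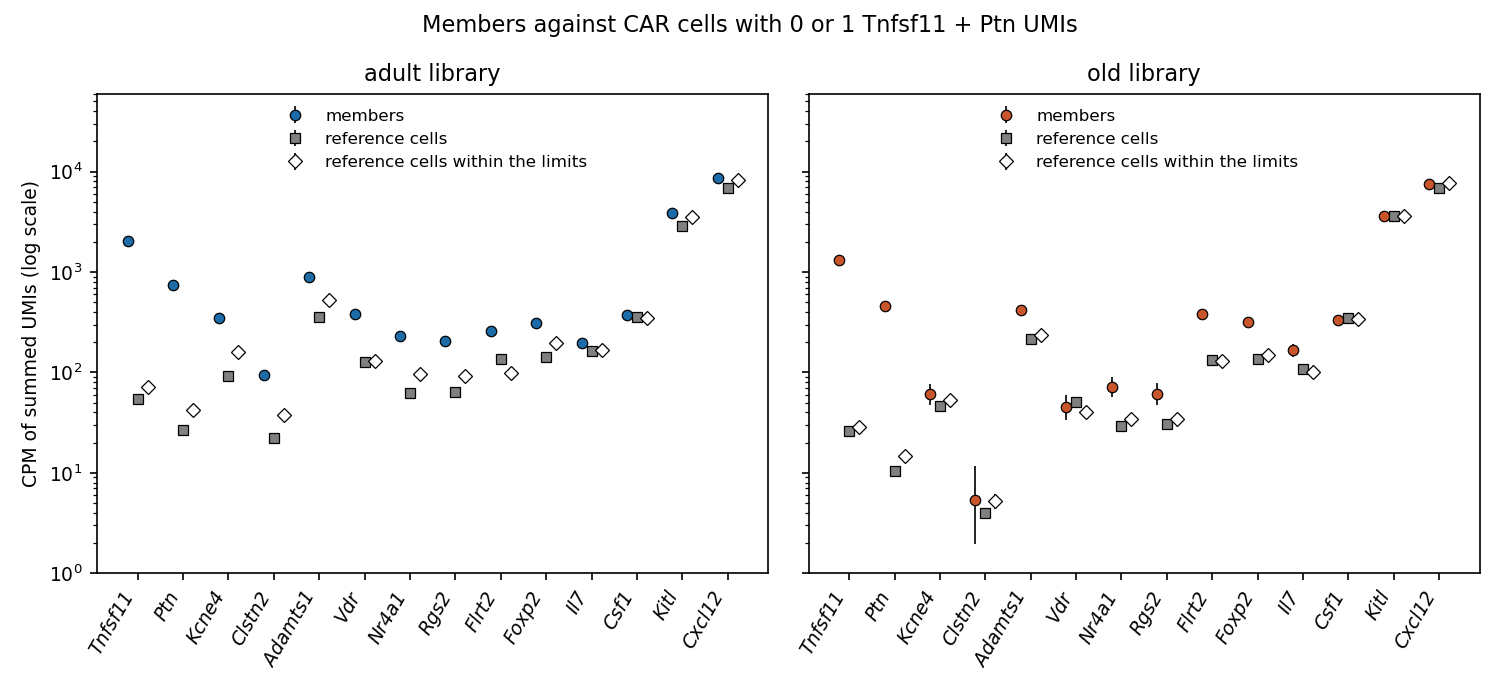
Level of 14 genes (y axis, CPM of summed UMIs, log scale) in members (filled circles), all reference cells (grey squares) and reference cells within the 6 limits (open diamonds), adult library on the left and old on the right; bars are 95% Poisson intervals. Kcne4, Clstn2 and Vdr lie above both references in adult members and close to them in old members, while Flrt2 and Foxp2 lie above in both.

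The member minimum did not fall at a break in the data. Adult cells just outside it, with 13 or 14 UMIs, numbered 277 and held 281 CPM of Kcne4, 295 CPM of Vdr and 172 CPM of Nr4a1. Those just inside, with 15 or 16 UMIs, numbered 236 and held 331, 339 and 186 CPM. Old cells on the 2 sides numbered 43 and 29, with 87.2 and 59.5 CPM of Kcne4. Clstn2 went against this, at 108 CPM in the adult cells just outside and 43.8 CPM in those just inside.

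Among receptors and regulators known to act on Tnfsf11, the vitamin D receptor Vdr (ENSMUSG00000022479) had the highest ratio in the adult library. Adult members held 383 CPM (371 to 395) and 65.5% of them had a Vdr UMI, against 128 CPM and 36.0% in reference cells and 130 CPM within the limits. The ratio was 2.99-fold, and 2.96-fold within the limits, so unlike Kcne4 it did not depend on which reference was used. Old members held 45.4 CPM (33.8 to 59.7) against 51.1 CPM, a log2 ratio of -0.17 (-0.60 to 0.23). Within the limits the old reference was at 40.3 CPM, which turned the sign, to 0.17 (-0.26 to 0.58). Per cell, the old megakaryocyte gate held 45.3% of the Vdr UMIs of an old member, past the 30% at which a gene was counted as open to free RNA. The gate's 92 Vdr UMIs lay in 4.76% of its 378 cells, so few cells carried them. Whether they were free RNA was not tested.

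Shares of cells with a UMI were also compared at equal depth. After thinning to 4000 UMIs per cell, which left out 48 adult members and 981 adult reference cells, 53.7% of adult members and 29.0% of reference cells had a Vdr UMI, and 51.4% and 20.5% a Kcne4 UMI. In the old library, where 0 members and 1274 reference cells were left out, the shares were 17.9% and 14.7% for Vdr and 10.5% and 12.4% for Kcne4. The adult megakaryocyte gate, at its own lower depth, had 9.98% of cells with a Vdr UMI and 5.20% with a Kcne4 UMI.

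The other genes of that list lay closer to the reference. The interleukin-1 receptor Il1r1 was at 596 against 316 CPM in the adult and 516 against 412 CPM in the old library. Stat3, which relays gp130 cytokine signals, was at 475 against 304 CPM and 460 against 340 CPM. The parathyroid hormone receptor Pth1r went the other way, at 79.0 CPM in adult members against 195 CPM in reference cells and 117 CPM within the limits, and at 60.6 against 77.7 CPM in the old library. Pth1r is also a gene of bone-forming cells, whose RNA the adult reference held. Over the 13 measured genes of the list, 8 were higher and 5 lower in adult members, with a median log2 ratio of 0.10, and 10 and 3 in old members, with 0.16, beside medians of 0.03 and 0.04 over all genes.

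Levels across the whole range of the gate, in CAR cells within the limits, showed how far each gene follows it. Adult Vdr went from 130 CPM in cells with 0 or 1 UMI through 175, 227, 281 and 349 CPM to 436 CPM in cells with 25 or more. Adult Kcne4 went from 159 to 364 CPM and adult Clstn2 from 37.9 to 128 CPM, each higher in every step. In the old library Vdr was highest, at 96.0 CPM, in cells with 10 to 14 UMIs and stood at 31.1 CPM in the 17 cells with 25 or more. Old Kcne4 went from 53.6 through 62.5 to 83.7 CPM over the first 3 bins and lay between 50.1 and 77.9 CPM in the others. Median depth also went up over these bins, from 4003 to 9206 UMIs in the adult and from 5739 to 9870 UMIs in the old library.

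**Figure D3:**
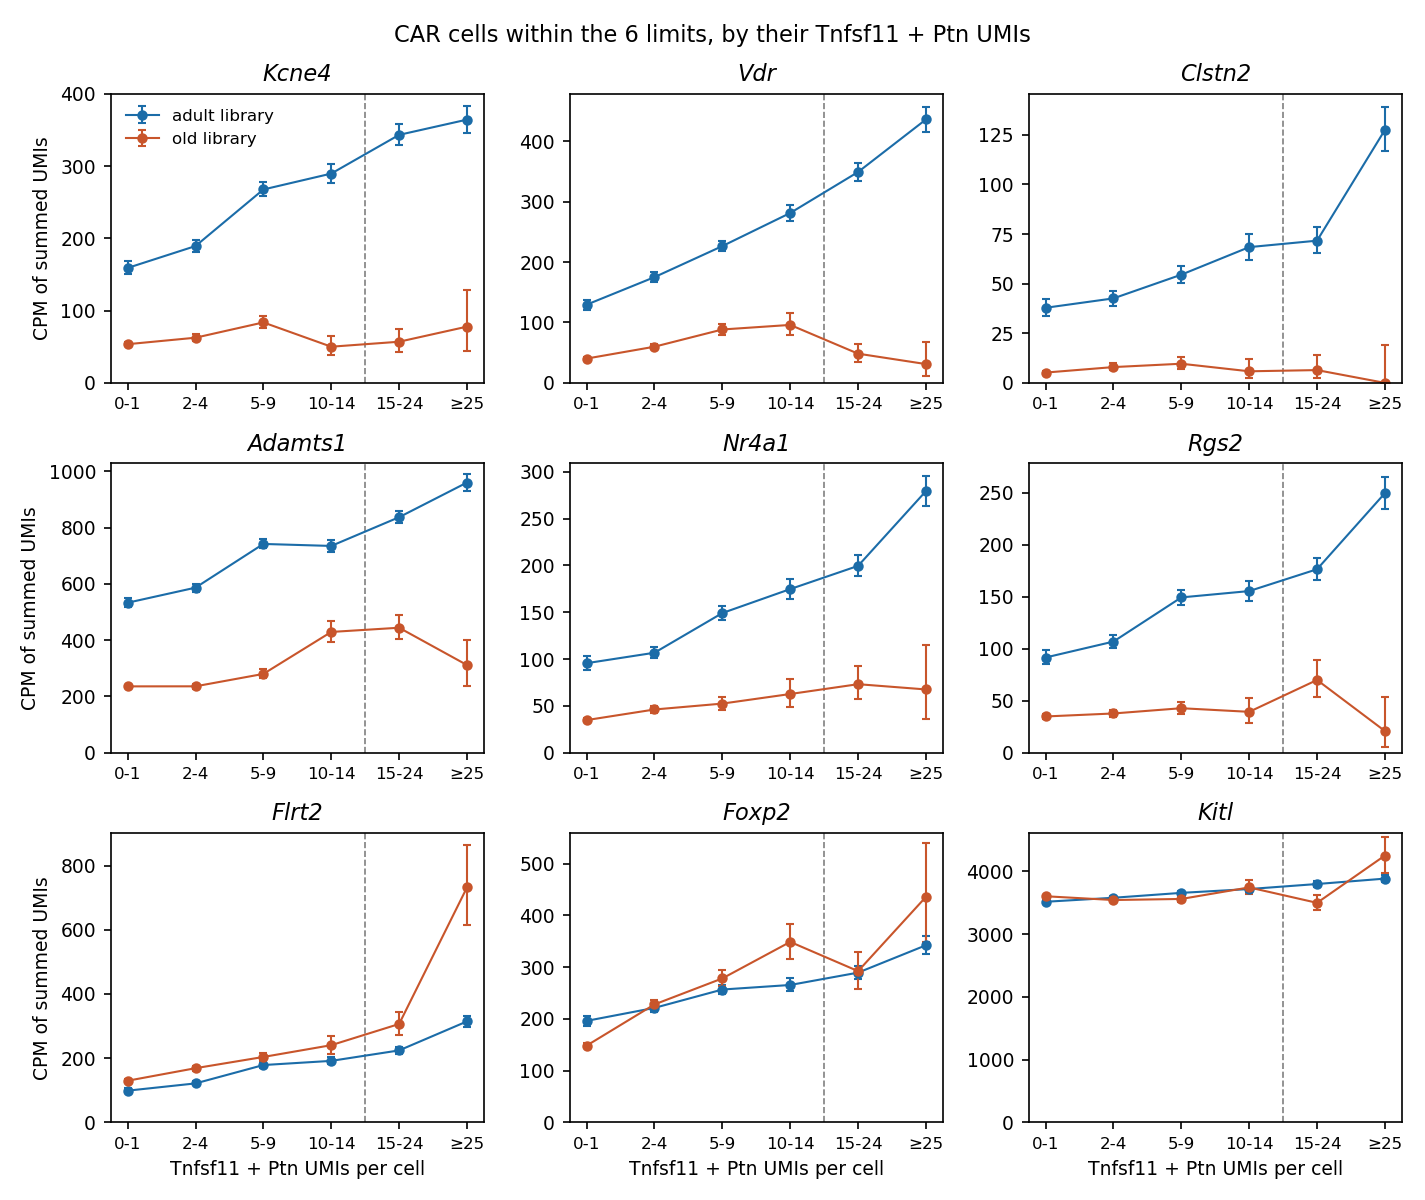
Level of 9 genes (y axes, CPM of summed UMIs) in CAR cells within the 6 limits, binned by Tnfsf11 and Ptn UMIs (x axes), for the adult (blue) and old (orange) library, with 95% Poisson intervals; the dashed line marks the member minimum. Adult Vdr lies between 130 CPM in the first and 436 CPM in the last bin, while old Vdr is highest, at 96.0 CPM, below the line.

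The decoy receptor of RANKL was nearly absent. Adult members had 8 Tnfrsf11b UMIs in 7 of 1193 cells (0.761 CPM, 0.329 to 1.5), below the 8.42 CPM of the megakaryocyte gate, so these UMIs cannot be read as expression. Old members had 0 in 95 cells, which allows a share of up to 3.16% of cells with a UMI and up to 2.67 CPM. RANK itself (Tnfrsf11a) had 1 UMI in adult and 0 in old members.

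The other osteoclast ligands did not follow RANKL. Csf1, the growth factor that osteoclast precursors need beside RANKL, was at 376 CPM in adult members against 354 CPM and at 329 against 350 CPM in the old library. Il34, a second ligand of the same receptor, was at 185 against 163 CPM in the adult, turned by the 218 CPM within the limits, and 160 against 202 CPM in the old library. Ccl2, which attracts monocytes, was at 126 against 104 CPM in the adult, where the reference within the limits was higher at 168 CPM, and at 125 against 82.4 CPM in the old library, with 70.7% of the old UMIs from 1 cell. None of these 3 reached 2-fold. Csf1r, the receptor, was 1.02 higher on the log2 scale in old members, with 84 UMIs (74.8 against 37.0 CPM). It is also a macrophage marker, but most others of that list were near 0 in old members. Adgre1, Lyz2, Cd68 and C1qb had 1, 4, 4 and 1 UMIs, and C1qa, Mrc1 and Fcgr1 had 0. Ly6c2, with 67 UMIs, and Vcam1, with 1261, were the exceptions.

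On the pleiotrophin side, midkine (Mdk), its only family relative, was at the same level in members and reference cells, 221 and 222 CPM in the adult and 227 and 222 CPM in the old library. The receptor Ptprz1 was at 6.18 CPM in adult members against 57.0 CPM in reference cells but 8.35 CPM within the limits, and at 13.4 CPM (15 UMIs) in old members. The heparan sulphate receptor syndecan-3 (Sdc3) was at 18.7 against 83.5 CPM and at 32.1 against 65.4 CPM. Within the limits its adult reference was at 41.2 CPM and the old at 46.7 CPM, which ended the old 2-fold call. Ptprz1 and Sdc3 in adult members and Ptprz1 in old members did not exceed what the megakaryocyte gate held per cell.

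Over the transcriptome few genes lay 2-fold apart. A gene counted as measured from 50 CPM and 50 UMIs upward in its higher group, and was called when the groups differed at least 2-fold. Between adult members and reference cells, 52 of 4056 genes were called higher (1.28%) and 107 lower (2.64%), 3.92% in all. Within the limits these were 18 (0.452%) and 40 (1.01%) of 3980 genes, or 1.46%. Between old members and reference cells, 27 of 4092 genes were higher (0.66%) and 28 lower (0.684%), 1.34% in all. Within the limits there were 34 higher (0.839%) and 25 lower (0.617%) of 4053, or 1.46%. These counts come from the contrast that chose the members and describe it.

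Both libraries called 16 of 3676 genes the same way (0.435%), 6 higher and 10 lower. The 6 are 11.5% of the adult and 22.2% of the old higher list. They are Nr4a1 and Foxp2, described below, the adhesion molecule Cntn1, the synaptic organiser Il1rapl1, the heparanase relative Hpse2 and the retrotransposon-derived gene Rtl4. Rtl4 was at 80.1 against 24.6 CPM in the adult and 107 against 27.4 CPM in the old library, and its adult log2 ratio of 1.71 was 1.02 within the limits. Cntn1 was at 97.0 against 37.2 CPM and 89.1 against 25.3 CPM, with 27.0% of the old UMIs from 1 cell, and its adult call was lost against the 64.1 CPM within the limits. Foxp2, Il1rapl1 and Hpse2 lost their adult calls there too, with log2 ratios of 0.66, 0.58 and 0.63. Hpse2 passed the old minimum with over 30% of its UMIs in 1 cell.

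With the reference held within the limits, the genes higher in both libraries were Nr4a1, Rtl4 and Flrt2, of 9 genes called the same way in 3634 (0.248%). The 10 genes lower in both libraries against all reference cells, 9.35% of the adult and 35.7% of the old lower list, were Cadm1, Fam78b, Kcnk2, Nhsl1, Sdc3, Spp1 and the globins Hba-a1, Hba-a2, Hbb-bs and Hbb-bt. With the reference within the limits the genes lower in both libraries were Fabp4, Spp1 and the 4 globins, while Cadm1, Fam78b, Kcnk2, Nhsl1 and Sdc3 were no longer called in both. Kcnk2, a potassium channel, went from a log2 ratio of -3.33 to -0.64 in the adult and from -2.41 to -0.82 in the old library. Spp1, osteopontin, was at 237 CPM in adult members against 1365 CPM, or 728 CPM within the limits, and at 205 CPM in old members against 855 and 502 CPM. For all 10 lower genes the megakaryocyte gate held over 30% of the UMIs per member in the adult library, so their levels in members may be free RNA. The share ran from 82.1% for Kcnk2 to 899% for Cadm1, of which a gate cell thus held more than a member. Whether the gate's UMIs were free RNA or RNA of its own cells was not tested. Without genes open to free RNA in this sense, 43 higher and 11 lower genes were left in the adult and 20 and 3 in the old library. The share is taken of the members' own UMIs, so it leaves out lower genes more readily than higher ones.

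**Figure D4:**
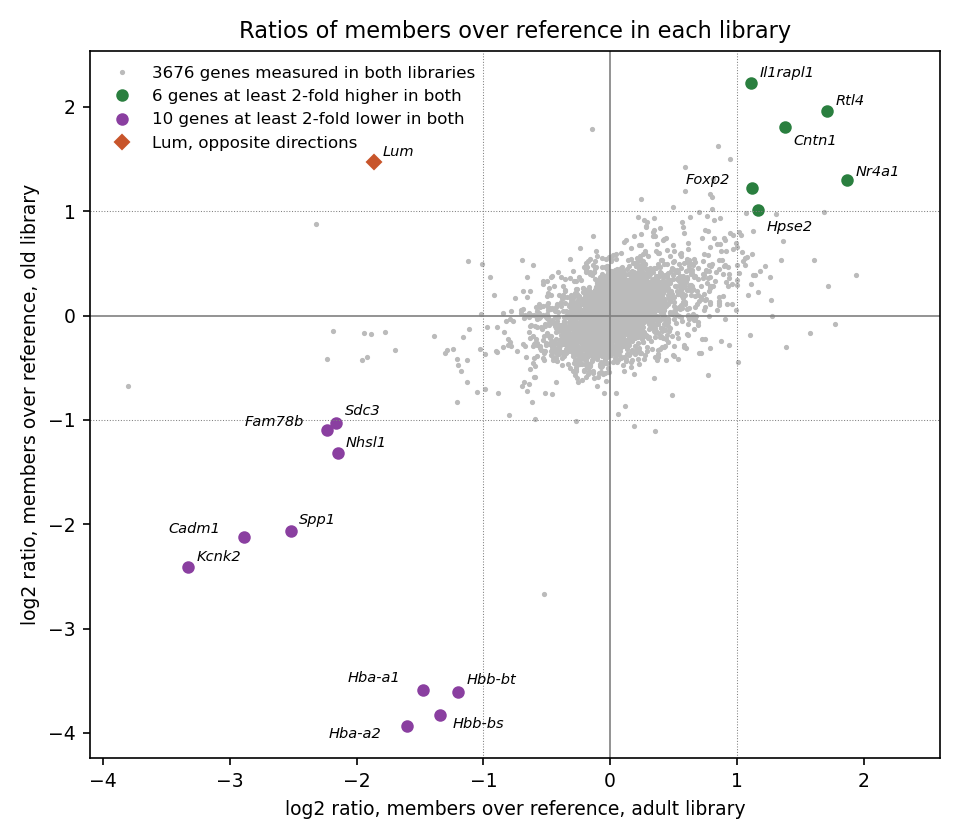
Log2 ratio of members over reference cells in the adult (x axis) and old (y axis) library for 3676 genes measured in both, with the 6 genes at least 2-fold higher in both in green and the 10 lower in purple; dotted lines mark 2-fold. Most genes lie near 0 on both axes, and Lum alone lies past 2-fold in opposite directions.

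The list with the highest median in adult members was that of vitamin D and cAMP targets, of whose 15 genes 5 were measured. All 5 were higher, 4 of them at least 2-fold, with a median log2 ratio of 1.63, beside 1.28% of all measured genes called higher. Within the limits 3 were at least 2-fold, beside 0.452%, and the median was 1.10. Against CAR cells with 15 or more UMIs that broke a limit, all 5 were higher, 0 at least 2-fold, with a median of 0.51. The 5 genes, Nr4a1, Nr4a3, Rgs2, Sik1 and Pde4d, belong to the cAMP side of the list. In old members 4 of 4 measured were higher, 1 at least 2-fold, beside 0.66%, with a median of 0.68, or 0.52 within the limits. Nr4a1 (ENSMUSG00000023034), an orphan nuclear receptor that cAMP and other stimuli induce quickly, was at 231 CPM (222 to 240) in adult members against 63.2 and 95.5 CPM. Old members held 72.1 CPM (57.3 to 89.7) against 29.4 and 34.7 CPM, so members lay above both references in each library.

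Rgs2, a brake on G protein signalling, was at 205 CPM in adult members against 63.4 CPM, and at 61.5 CPM (47.8 to 77.8) in old members against 31.0 CPM, with 33.3% of the old UMIs from 1 cell. Without the deepest 10% of CAR cells, or with a member minimum of 25 UMIs, its old log2 ratio turned negative. The relative Nr4a3 was at 101 against 32.7 CPM in the adult and, with 40 UMIs, at 35.6 against 15.1 CPM in the old library. Sik1, a salt-inducible kinase, was at 179 against 74.4 CPM in the adult, a call lost against the 108 CPM within the limits, and 105 against 81.3 CPM in the old, and the phosphodiesterase Pde4d at 431 against 250 CPM and 745 against 678 CPM. Cyp24a1, the classical vitamin D target, did not reach the minimum in any comparison.

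Immediate early genes, which share the Nr4a genes with that list, were higher by less. Of 19 measured, 18 were higher in adult members, with a median of 0.86, and 3 reached 2-fold, beside 1.28% of all measured genes. Within the limits 18 were still higher, 2 at least 2-fold beside 0.452%, and the median was 0.35. Old members had 13 of 16 higher, with a median of 0.33, or 10 of 16 and 0.12 within the limits. Fos was at 3505 against 1755 CPM in the adult and 1514 against 1082 CPM in the old library, and Egr1 at 1787 against 914 CPM and 1627 against 1049 CPM. Heat shock genes were higher beside them, 8 of 10 measured in adult members (median 0.29) and 9 of 13 in old members (0.17). The median mitochondrial share was 1.92% in adult members against 2.70% in reference cells, and 2.23% against 2.30% in the old library. The part of stress or RNA quality in the immediate early ratios was not tested.

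The IGF list and the guidance and angiogenic list were higher on balance in both libraries. For the IGF system 7 of 10 measured genes were higher in adult and 8 of 10 in old members, with medians of 0.35 and 0.31, and none reached 2-fold. Igfbp5, a binding protein of bone matrix, was at 14640 against 9338 CPM in the adult and 13390 against 10090 CPM in the old library. The insulin receptor substrate Irs2 was at 152 against 75.9 CPM and 112 against 71.3 CPM. Vegfa, the main endothelial growth factor, was at 422 against 182 CPM in adult members, the 1 gene of its list past 2-fold there, though not against the 240 CPM within the limits, and at 270 against 194 CPM in old members.

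Blood-supporting factors differed little. Over 26 niche factors, 10 of 16 measured were higher in adult and 10 of 17 in old members, with medians of 0.22 and 0.09; Vegfa and Spp1 were the adult genes past 2-fold. Stem cell factor (Kitl) was at 3831 against 2855 CPM in the adult library, but the reference within the limits held 3514 CPM. In the old library it was at 3626 against 3625 CPM. Il7, the B-cell growth factor, was at 198 against 164 CPM in the adult and 167 against 109 CPM in the old library. Fgf7, a growth factor for epithelial cells, was at 501 against 370 CPM and 637 against 379 CPM. The CAR identity list, with 14 of 15 measured genes higher in adult members at a median of 0.26, had 8 of 15 and 0.04 within the limits. Its genes include Adipoq, at 1804 CPM in members, 1483 CPM in reference cells and 1861 CPM within the limits.

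BMP and TGF-beta genes were higher by small amounts. Of this list 11 of 19 measured genes were higher in adult members (median 0.12) and 14 of 17 in old members (0.13). The ligand Bmp5 was at 408 against 266 CPM in adult members and 325 against 226 CPM in old ones, and the co-receptor Tgfbr3 at 1599 against 924 CPM and 1346 against 1107 CPM. Grem1, a secreted BMP antagonist, was at 620 against 375 CPM in adult members but at 353 against 414 CPM in old ones.

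Matrix proteases and their inhibitors depended on the reference in the adult library. In that library 4 of 14 measured were higher against all reference cells (median -0.21) and 8 of 12 within the limits (0.15). In the old library 7 of 10 were higher with each reference, with medians of 0.19 and 0.31. Adamts9, another proteoglycan-cleaving protease, was at 679 CPM in adult members against 554 CPM and 460 CPM within the limits, and at 547 against 293 and 262 CPM in old members. Timp3, an inhibitor of such proteases, was at 27.6 against 138 CPM, or 85.4 CPM within the limits, in adult and 120 against 65.4 or 56.4 CPM in old members, with 40.7% of the old UMIs from 1 cell.

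Synaptic adhesion genes, the class of Clstn2, depended on the reference. Against all reference cells 4 of 9 were higher in adult and 5 of 8 in old members, with medians of -0.05 and 0.12. Within the limits 7 of 7 measured genes were higher in each library, with medians of 0.30 and 0.35. That count leaves out genes whose level fell below the minimum in both groups. Cadm1, of the same list, was no longer measured there but was still lower in members, with log2 ratios of -1.15 (adult) and -0.82 (old). The 7 of 7 thus cannot stand for the whole list. Ncam1, a cell adhesion molecule of the immunoglobulin family, was at 268 CPM in adult members, 306 CPM in reference cells and 122 CPM within the limits, and at 168, 187 and 111 CPM in the old library. Negr1, of the same family, was at 1346 against 921 CPM in adult and 1060 against 815 CPM in old members.

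Senescence and p53 targets had 7 of 10 higher in adult members (median 0.41, or 0.19 within the limits) and 7 of 9 in old members (0.24). The cell cycle inhibitor Cdkn1a was at 233 against 117 CPM in adult members and 86.4 against 83.2 CPM in old ones, where the reference within the limits was higher at 91.5 CPM. Complement genes had 5 of 6 higher in adult members (median 0.38, or 0.05 within the limits) and 1 of 6 in old members (-0.19), and whether the libraries differ was not tested. C4b, a component of the classical pathway, was at 260 against 179 CPM in adult and 371 against 497 CPM in old members. The rule itself capped C3 and Saa3 in members and not in the reference.

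Antigen presentation and oxidative phosphorylation were lower by small amounts. Of the antigen presentation genes 10 of 11 measured were lower in adult members (median -0.23) and 13 of 14 in old members (-0.28). H2-K1, a class I heavy chain, was at 1677 against 2171 CPM in the adult and 2283 against 2672 CPM in the old library, and its light chain B2m at 1336 against 1832 CPM and 1751 against 2203 CPM. All 27 measured oxidative phosphorylation genes were lower in adult members, with a median of -0.16, and 21 of 26 were lower in old members, with -0.13. None of these genes reached 2-fold against all reference cells.

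Osteogenic genes were the lowest list in the adult library, with 15 of 17 measured lower, 12 of them at least 2-fold, and a median of -2.15, beside 2.64% of all measured genes called lower. Within the limits 12 of 15 were lower, 7 at least 2-fold, beside 1.01% of all measured genes, with a median of -0.81. Osteocalcin (Bglap) was at 152 CPM in members, 3617 CPM in reference cells and 2416 CPM within the limits, and Col1a1 at 744, 10360 and 8302 CPM. In old members 7 of 10 were lower with a median of -0.14, which turned to 0.06 within the limits. The osteoblast and osteocyte markers of the adult reference are given above, and their part in this value was not tested. Of the 17 genes all but 2 were open to free RNA in members, and those 2 gave a median of 0.34. That share is taken of the members' own UMIs and so leaves out genes that are low in members, and the 2 genes cannot stand for the list.

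**Figure D5:**
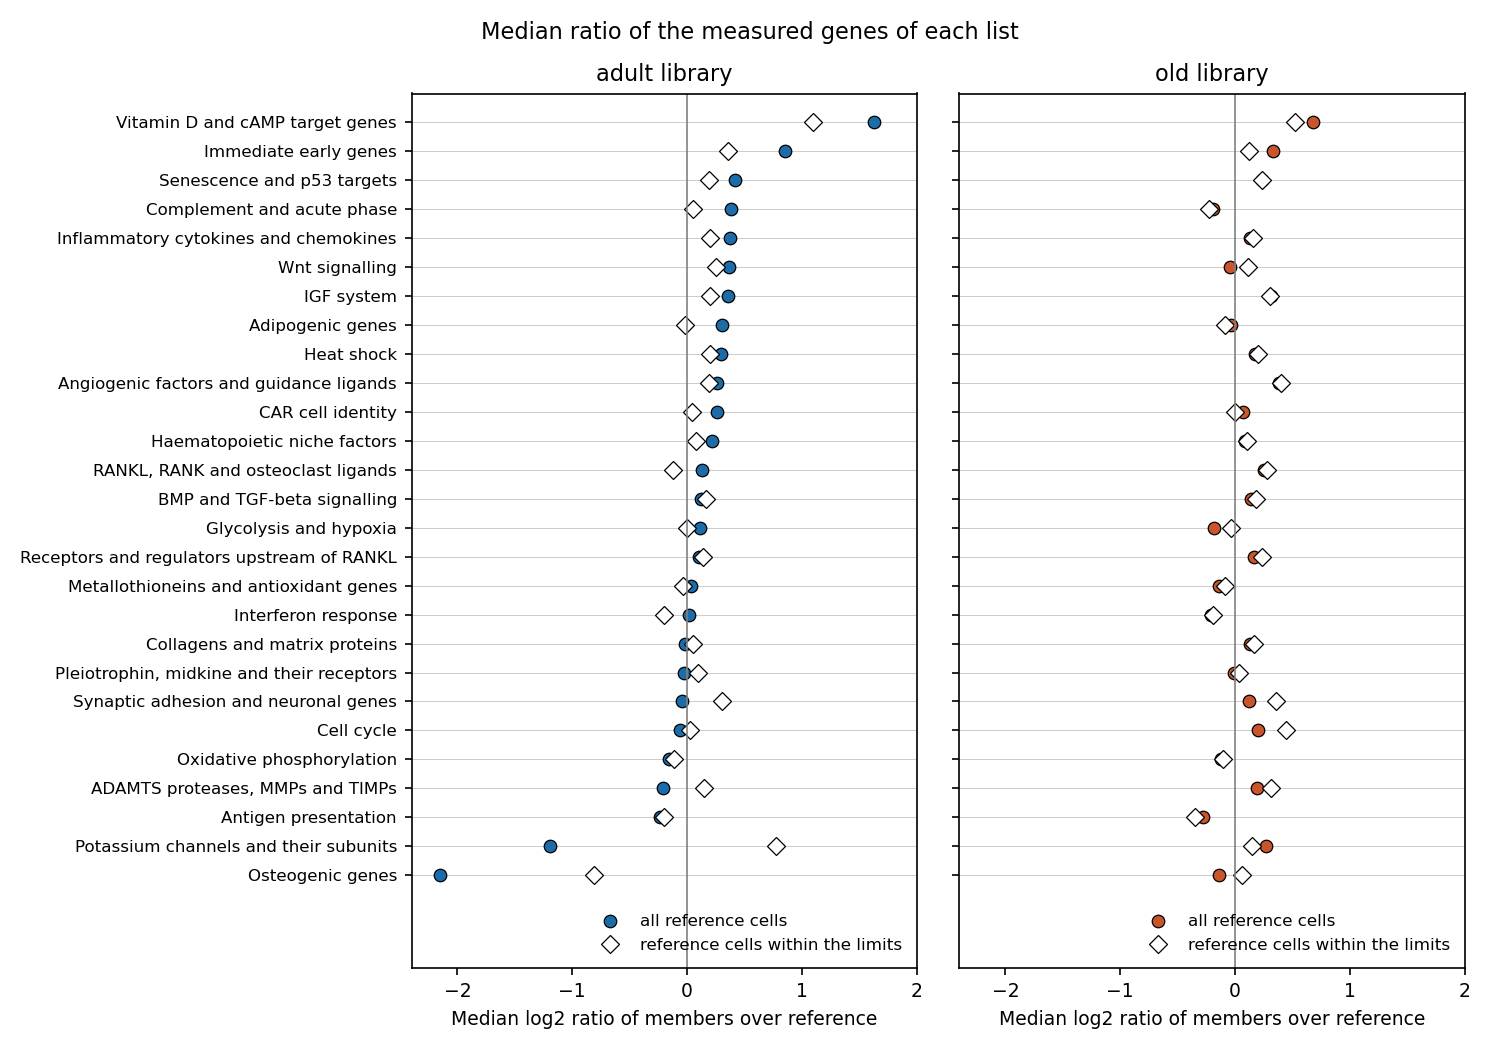
Median log2 ratio of members over reference (x axis) for the measured genes of 27 lists (y axis), adult library on the left and old on the right, against all reference cells (filled circles) and those within the 6 limits (open diamonds). The vitamin D and cAMP targets are highest in both libraries, at 1.63 and 0.68, and several lists lie on the other side of 0 with the second reference.

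By the rule that ranks genes on the ratio nearer to 0 of the 2 libraries, the 15 highest were Foxp2, Adamts1, Flrt2, Nfkbiz, Trabd2b, Ebf2, Zfpm2, Sfrp4, Pcdh9, Sned1, P3h2, Stat5a, Pknox2, Rnf150 and Slc2a13. Foxp2 (ENSMUSG00000029563), a forkhead transcription factor, was at 310 CPM (300 to 321) in adult members against 143 and 196 CPM, and at 317 CPM (285 to 352) in old members against 136 and 148 CPM. The 2 ages thus reached the same level. Flrt2 (ENSMUSG00000047414), a membrane protein that binds Unc5 receptors, was at 259 against 135 and 98.7 CPM in the adult and 379 against 135 and 130 CPM in the old library, with 14.1% of the old UMIs from 1 cell. Its ratio was larger within the limits in both libraries.

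Across the gate bins Flrt2 was higher at every step in both libraries, from 98.7 to 314 CPM in adult cells and from 130 to 732 CPM in old cells, the last value resting on 17 cells. Foxp2 went from 196 to 342 CPM in adult cells. In old cells it went from 148 to 349 CPM at 10 to 14 UMIs, 292 CPM at 15 to 24 and 436 CPM in the last bin. Old Vdr, for comparison, went from 40.3 through 59.9 and 88.4 to 96.0 CPM over the first 4 bins and was at 48.4 and 31.1 CPM in the last 2, which hold the members.

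Ebf2, a transcription factor of mesenchymal cells, was at 105 against 60.2 CPM in the adult and 142 against 57.5 CPM in the old library. Stat5a, a cytokine-responsive transcription factor, was at 111 against 62.9 CPM and 114 against 67.9 CPM. The Wnt modulators Sfrp4 and Trabd2b were at 727 against 359 CPM and 297 against 168 CPM in adult members, and at 415 against 238 CPM and 336 against 178 CPM in old members. Nfkbiz, which encodes a regulator of NF-kappaB, was at 257 against 141 CPM and 328 against 171 CPM. Within the limits the adult calls of Sfrp4 (reference 495 CPM), P3h2 (263 CPM), Rnf150 (105 CPM) and Adamts1 were lost. These 15 genes kept their sign in both libraries with the reference within the limits, where their log2 ratios ran from 0.13 (Zfpm2, adult) to 1.55 (Flrt2, old).

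The 15 lowest by the same rule had small ratios, since 769 genes that passed the minimum were left out as open to free RNA and 693 remained. They were Slc8a1, Tnfrsf19, H2-Q7, Plxna2, Sdc2, Chsy3, Fign, Igfbp7, Bst2, H2-D1, H2-K1, Dpysl3, Cpq, Anxa2 and Limch1. The sodium-calcium exchanger Slc8a1 was at 156 against 215 CPM in the adult and 157 against 264 CPM in the old library. Within the limits Limch1, Plxna2, Chsy3 and Dpysl3 turned to higher in both libraries and Cpq in the adult. Tnfrsf19 lost its adult call, with a log2 ratio of -1.20 that became -0.30. Limch1 turned furthest of these, with a log2 ratio of -1.39 in the adult that became 0.49.

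Old and adult members differed at 141 genes higher (3.34%) and 116 lower (2.75%) in the old library, 6.09% of 4219 measured. Reference cells within the limits differed between the libraries at 5.65% of genes (2.68% higher, 2.97% lower) and all CAR cells at 5.86% (2.88% higher, 2.98% lower), so the share was near that of CAR cells at large. All CAR cells include the members, so these values are set side by side without a test. Of the 141 genes higher in old members, 41 had over 30% of their old UMIs in 1 cell. Of the 95 old members 3 had more than 30000 UMIs, 1 of them with 13922 UMIs of the antibody gene Igkc, and leaving such cells out moved no count of called genes by more than 1.5 times. The 10 plasma cell markers summed to 14450 CPM in old members, 25640 CPM in old reference cells and 192 CPM in adult members. The sum in old members came mostly from the cell with 13922 Igkc UMIs, of 15677 in all old members. Only 1 old member had over 1% of its UMIs in these markers, and the median was 0.199%.

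The 10 lowest in old members were Rnf144a, Kcne4, Tnfaip6, Ifitm1, Id3, Abtb2, Wnt4, Cebpb, Slc4a4 and Rgs2. Rnf144a, a ubiquitin ligase, was at 334 CPM in adult and 55.2 CPM (42.3 to 70.8) in old members, a log2 ratio of -2.60, beside -1.78 in reference cells within the limits and -1.64 in all CAR cells. Abtb2 was at 202 and 52.5 CPM, a ratio of -1.94 beside -0.51 and -0.73. The hyaluronan-binding protein Tnfaip6 was at 129 and 24.9 CPM, with 28 old UMIs, a ratio of -2.37 beside -0.93 and -1.25. Id3, a target of BMP signalling, was at 1448 and 368 CPM, and its -1.98 was close to the -1.84 and -2.00 of the other cells. Vdr, left out of these 10 because it was counted as open to free RNA in old members, had the ratio -3.08 in members (-3.50 to -2.68), beside -1.69 and -1.77.

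The 10 highest in old members were Efemp1, Tenm2, Cybb, Col8a1, Kcnab1, Rgs20, Tmcc3, Synpo2, Ank3 and Eps8. Efemp1, an extracellular matrix glycoprotein, was at 21.5 CPM in adult members and 207 CPM in old ones, a log2 ratio of 3.27 beside 2.43 in reference cells within the limits and 3.05 in all CAR cells. The teneurin Tenm2 was at 82.8 and 459 CPM, a ratio of 2.47 beside 2.26 and 2.08. Kcnab1, a potassium channel subunit, was at 69.2 and 314 CPM, a ratio of 2.18 beside 2.47 and 2.61. Col8a1, a network-forming collagen, was at 206 and 942 CPM, and its 2.19 stood beside 1.36 and 1.0.

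Among lists, all 19 measured immediate early genes were lower in old than in adult members, 9 of them at least 2-fold, beside 2.75% of all measured genes, with a median of -0.77. The vitamin D and cAMP targets had 4 of 5 lower and a median of -1.5. Antigen presentation genes were higher in 10 of 13, with a median of 0.39. H2-K1 gave 0.45 in members, beside 0.43 in reference cells within the limits and 0.44 in all CAR cells. Nr4a1 gave -1.68 beside -1.46 and -1.62, so both genes differed between the libraries in members much as in the other cells.

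Members were also set against CAR cells that reached 15 UMIs but broke a limit. Adult members lay 2-fold above these 2028 cells at 3 of 3958 genes (0.0758%) and below at 57 (1.44%), 1.52% in all. Old members lay above the 210 such cells at 21 of 4107 genes (0.511%) and below at 23 (0.56%), 1.07% in all. Tnfsf11 was at 1336 CPM and Ptn at 485 CPM in the adult cells outside the limits, against 2016 and 746 CPM in members, and depth differed, at 12704 against 8377 UMIs per cell. Adamts1 was at 559 CPM in such adult cells and 310 CPM in such old cells, against 885 and 421 CPM in members. Osteogenic genes were again the lowest list, with 15 of 16 lower in adult members and a median of -1.53. The limits themselves remove cells with the bone gene Alpl.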

How the data were processed

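Droplet single-cell RNA libraries from 1 adult and 1 old mouse sample were used as the authors' deposited matrices of raw UMI counts, made with Cell Ranger 7.0.1 per the file headers, on GRCm39 per the submitters' processing notes. The members and all gene lists were chosen with earlier results of these data known, as were the genes plotted by bin, the promoters and motifs shown and 3 of the alternatives. Counts were summed over the cells of a group, divided by the group's total UMIs and given as CPM, with exact Poisson intervals, and ratios with exact conditional binomial intervals. All intervals are at 95%. UMIs collapse PCR copies, yet intervals cover counting error only.

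A gene was measured at 50 CPM and 50 UMIs in the higher group and called at 2-fold. With 1 library per age group there was no test. Where a group held 0 UMIs, a floor of 3 counts was used. A gene was open to free RNA when the megakaryocyte gate held over 30% of the members' UMIs per cell. This share does not tell free RNA from RNA of the gate's own cells. Named genes were the 15 highest and 15 lowest against reference and the 10 highest and 10 lowest between ages, at 100 CPM and 100 UMIs, without rule genes, genes of mitochondria, ribosomes, antibodies, globins or the sex chromosomes' known markers, numbered gene models, a list of abundant blood cell genes and genes open to free RNA, plus a fixed set and up to 4 genes of each of 27 lists. Other genes, among them Rtl4, Hpse2, Il1rapl1 and the globins, were named from counts of 16 or fewer. No doublet caller was run. Depth was 208637421 and 229917243 UMIs, and 17 alternatives were tried. Python 3.11.15, NumPy 2.4.6, SciPy 1.17.1, pandas 2.3.3 and matplotlib 3.10.9 were used, and the ratios and intervals were tested on simulated data.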

Additional observations from a re-analysis of the deposited data

Results flagged for a closer look

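Lum, which encodes the matrix proteoglycan lumican, stood out because the libraries lay in opposite directions. In the adult library members held 81.9 CPM against 298 CPM in reference cells, a log2 ratio of -1.86, and in the old library 92.6 CPM against 33.4 CPM, a ratio of 1.47. Member levels were thus close, and the reference levels were not. Within the limits the reference stood at 157 and 42.6 CPM. With 1 library per age group the difference between the libraries was not tested.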

How the results depend on the processing

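There were 17 alternatives, 14 planned and 3 added after the data were seen. Over all of them, 52 values of the counts and shares were labelled as moved and 88 as the same. Counts and shares have no direction, so none of them could reverse. The main counts were 52 higher and 107 lower genes in the adult library, 27 and 28 in the old, 141 and 116 between ages, and 6 and 10 the same way in both. With the reference within the limits the adult counts were 18 and 40 and those in both libraries 3 and 6, and with depth matched as well the adult counts were 22 and 40, the old 76 and 74, and 6 were lower in both. A depth-matched reference alone gave 44 higher in the old library and 11 higher in both, and a reference of 0 to 4 UMIs gave 31 higher in the adult. Thinning to 4000 UMIs gave 10 and 47 in the old library, 64 higher between ages, 1 higher in both and member shares of 2.19% and 0.0832%. Mean per-cell CPM gave 33 higher in the adult. A member minimum of 10 UMIs gave 17 lower in the old library, 5 lower in both and shares of 12.8% and 1.63%. A minimum of 25 UMIs gave 262 lower in the old library, 35 and 288 between ages, 16 lower in both and shares of 2.55% and 0.126%. Choosing members by UMIs per 10000 gave 124 lower in the old library and 10 higher in both. A gene minimum of 20 CPM and UMIs gave 198 lower in the adult, 69 and 68 in the old, 357 and 226 between ages and 31 lower in both, and a minimum of 200 gave 21 and 31, 4 and 12, 32 and 38, and 1 and 5. Without genes open to free RNA 11 adult and 3 old calls were lower, 67 and 62 differed between ages, and 0 were lower in both. Stricter cell filters gave an adult share of 7.93%, and leaving out the deepest 10% of CAR cells 7.88%. Except where an alternative changes cells or genes by construction, the cause was not tested. No paired analysis was possible because each age group has 1 library. The 95 old members limit the old ratios: 6 UMIs of Clstn2 leave its direction unknown.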
